A study of Mus musculus with 8 samples.

Results

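*Il6*, *Ccl3*, *Cxcl12* and *Bcl3* are 4 mRNAs of inflammatory signalling that were chosen by name from the 67 target mRNAs measured in the mouse knee joint. Their signals were read in lysates of formalin-fixed, paraffin-embedded knee sections from 8 inbred strains. The sections came from mice that had received a full-thickness defect of the articular cartilage at 8 weeks of age, and the methods give 16 weeks from surgery to harvest, 3 to 4 mice per strain and 25 sections per strain. The lysed tissue held cartilage, subchondral bone, meniscus, growth plate, joint capsule and synovium together, so that fewer cells of a type and less mRNA per cell could not be told apart. The labels class LG/J, MRL/MpJ and LGXSM-6 as healers, LGXSM-5 and LGXSM-35 as intermediate healers, and SM/J, C57BL6/J and LGXSM-33 as non-healers. The LGXSM strains are recombinant inbred lines, each carrying a mix of LG/J and SM/J alleles. LG/J is also among the founders of MRL/MpJ, so that the strains are not unrelated. No uninjured knee was analysed here, and no sex, plate or date is labelled, so every comparison below is between operated strains.

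Interleukin 6 is a cytokine that acts through the transcription factor Stat3 and is released in joints by synovial fibroblasts, macrophages and chondrocytes. The chemokines differ in their sources: Ccl3, also called macrophage inflammatory protein 1 alpha, comes mainly from activated leukocytes and draws in monocytes and osteoclast precursors, whereas Cxcl12 is made steadily by stromal cells of bone marrow and synovium and holds blood-forming cells in the marrow. Bcl3 is a nuclear member of the IκB family that binds NF-κB dimers on DNA and adjusts which NF-κB targets are transcribed.

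All 4 mRNAs were on the first panel of the assay, in which probes on coded beads capture each mRNA and branched DNA gives a fluorescence signal. The strain is the sample. Each strain has 8 to 12 numbered signals, called assay replicates here, 12 in the lines LGXSM-33 and LGXSM-6, 8 in SM/J and LG/J, and 9 in the remaining 4 strains, 76 in all. The study describes repeat measures of each mouse, in triplicate, so that the assay replicates of a strain outnumber its mice, but the files do not say which mouse a signal came from. Tests over assay replicates therefore measure the spread between signals, part of it technical, and their p-values are too small for a statement about animals. Marker mRNAs of the labelled tissue were present: the median signals over assay replicates were 3358 for *Col2a1* and 272 for *Acan*, of cartilage, and 1531 for *Bglap1* and 24459 for *Col1a1*, of bone.

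The 4 mRNAs differed widely in signal. *Il6* ran from 5 to 24 with a median of 9, and had the 7th lowest median of the 67 mRNAs. *Ccl3* ran from 39 to 699 with a median of 72, *Bcl3* from 13 to 568 with a median of 171, and *Cxcl12* from 166 to 7043 with a median of 1464. These are signals of different probes and give no order of abundance between the mRNAs. *Il6* was read in steps of 0.5 or 1 near 10, so that a single step shifted it by several percent, and neither a blank well nor the number of beads behind a signal was analysed here.

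The raw signals followed, to different degrees, the reference genes *Gapdh*, *Hprt1* and *Actb*, the transcripts taken as a measure of how much tissue RNA a well held. Regression on them took 96.5% of the variance of log10 *Cxcl12* signal, 82.6% for *Bcl3*, 59.0% for *Il6* and 41.6% for *Ccl3*, against a median of 72.1% over the 67 mRNAs. Per log10 unit of reference signal the log10 signal rose by 1.12 for *Cxcl12*, 0.974 for *Bcl3*, 0.596 for *Ccl3* and 0.361 for *Il6*. *Cxcl12* thus moved nearly in proportion to the reference genes, and *Il6* and *Ccl3* moved much less than in proportion. Before normalization LGXSM-6 was the highest strain for *Il6*, *Cxcl12* and *Bcl3*, and SM/J was the lowest for the same 3, as they were for 71.6% and 79.1% of all 67 mRNAs. Of the 8 SM/J signals 3 stood apart, with a geometric mean of the reference genes between 216 and 249, where the lowest of all others was 1097. In those SM/J wells *Cxcl12* was between 166 and 190 and *Bcl3* between 13 and 19.5, the lowest signals of either mRNA.

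**Figure D1:**
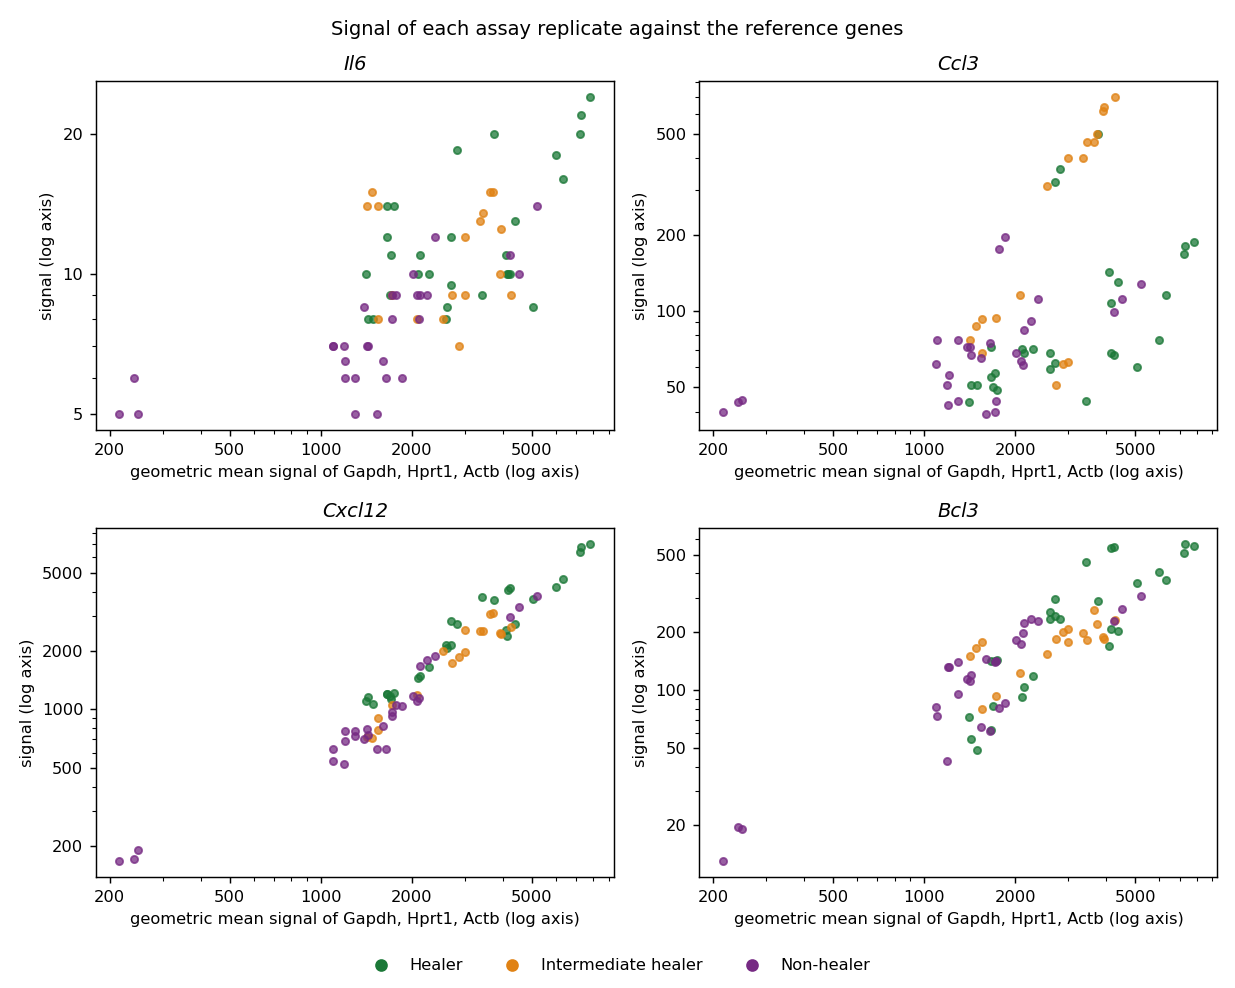
Signal of each mRNA in the 76 assay replicates (y axis, log scale) against the geometric mean signal of *Gapdh*, *Hprt1* and *Actb* (x axis, log scale), coloured by healing class. *Cxcl12* follows the reference genes closely (96.5% of its variance), *Il6* rises little with them, and *Ccl3* shows a group of signals of 310 to 699 that lies above the rest at the same reference signal. The 3 points at the far left are SM/J wells.

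The values compared between strains are therefore the normalized values, the residuals of log10 signal on the reference genes, and differences between them are log10 differences, given also as folds. In the moderated F test of limma over the assay replicates, 80.6% of the 67 mRNAs differed between strains (adjusted p under 0.05), and so did *Ccl3* (adjusted p = 0.00107), *Cxcl12* (adjusted p = 0.00107) and *Bcl3* (adjusted p = 4.97e-08), while *Il6* did not pass (adjusted p = 0.0729). *Il6* passed without the 3 SM/J wells of low reference signal (adjusted p = 0.0368), without LGXSM-5 (adjusted p = 0.0232) and without MRL/MpJ (adjusted p = 0.0336). It did not pass in every fit with a strain left out. Signals with neighbouring numbers lay closer together than other signals of a strain. For *Ccl3* the mean difference between signals with neighbouring numbers in a strain was 0.136, against 0.251 for other pairs of signals of the same strain, and for *Bcl3* these were 0.0601 and 0.111. With Signals 1, 4, 7 and 10 of each strain alone, 16.4% of the 67 mRNAs differed, and *Bcl3* (adjusted p = 0.0896), *Cxcl12* (adjusted p = 0.479) and *Ccl3* (adjusted p = 0.484) no longer did. The distance from the highest to the lowest strain mean was then 0.293 for *Bcl3*, 0.138 for *Cxcl12* and 0.520 for *Ccl3*, against 0.321, 0.118 and 0.501 with all signals. Counts of calls between strains are therefore given below with the counts on those signals alone.

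**Figure D2:**
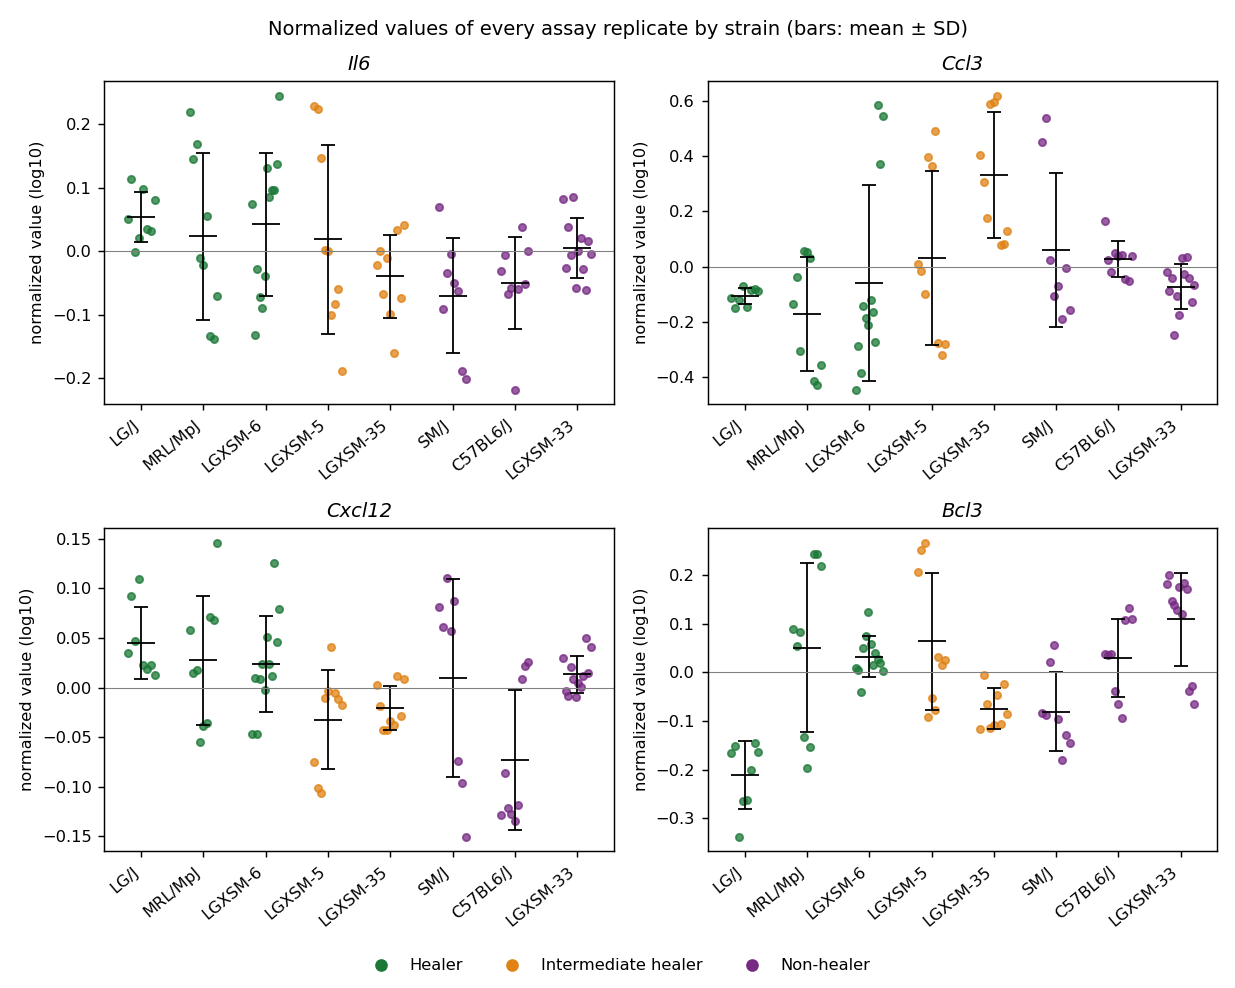
Normalized values (log10, y axis) of every assay replicate by strain (x axis), coloured by healing class, with the mean and SD of each strain in black. *Ccl3* is highest in LGXSM-35, *Bcl3* is lowest in LG/J and *Cxcl12* is lowest in C57BL6/J, whereas the strains overlap throughout for *Il6*.

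*Il6*, the cytokine, had the fewest strain pairs called and the smallest between-strain share of variance of the 4 mRNAs. Its signals ran from 8 to 12 in LG/J with a median of 10, from 9 to 14 in MRL/MpJ with a median of 11, and from 8 to 24 in LGXSM-6 with a median of 17. In the non-healers they ran from 5 to 9 in SM/J with a median of 6, from 5 to 12 in C57BL6/J with a median of 7, and from 6.5 to 14 in LGXSM-33 with a median of 8.75. In the intermediate strains they ran from 7 to 15 in LGXSM-5 with a median of 13 and from 8 to 15 in LGXSM-35 with a median of 10. The medians of the healers and of the intermediate healers were all above those of the non-healers, but the ranges overlapped.

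After normalization the order of the *Il6* strain means from highest to lowest was LG/J, LGXSM-6, MRL/MpJ, LGXSM-5, LGXSM-33, LGXSM-35, C57BL6/J and SM/J. The top mean was 0.0538 ± 0.0399 in LG/J (SD, n = 8 assay replicates) and the bottom was −0.0702 ± 0.0903 in SM/J (SD, n = 8 assay replicates), 1.33-fold apart. No 2 neighbours in this order differed beyond their spread, and the adjusted p between neighbours ranged from 0.449 to 0.953. Of the 28 strain pairs, 2 passed limma's test for *Il6*, against 29.7% of the 1876 pairs over all mRNAs: SM/J was lower than LG/J (adjusted p = 0.0404) and than LGXSM-6 (adjusted p = 0.0418). Both directions turned as a ratio to the reference genes, where SM/J was the highest strain (−2.11) and LGXSM-6 the lowest (−2.48). In 0 of the 28 pairs were the assay replicates of the strains apart, against 7.52% over all mRNAs, and with Signals 1, 4, 7 and 10 alone 0 pairs passed. The values spread most widely within LGXSM-5, from −0.189 to 0.228, LGXSM-6, from −0.132 to 0.245, and MRL/MpJ, from −0.139 to 0.218. Signals 1 to 3 had the highest normalized values in MRL/MpJ, from 0.144 up, and in LGXSM-5, from 0.147 up, as Signals 10 to 12 and 7 to 9 did in LGXSM-6, from 0.0857 up.

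*Ccl3*, the leukocyte chemokine, had the widest normalized values within strains of the 4 mRNAs. This spread within strains, an SD of 0.229 on the normalized log10 scale, was the 3rd largest of the 67 mRNAs, whose median was 0.0870. In LGXSM-35 its signals ran from 68 to 699 with a median of 466. In LGXSM-5 they ran from 51 to 465 with a median of 87, in LGXSM-6 from 59 to 498 with a median of 141, and in SM/J from 40 to 196 with a median of 58. In the remaining strains *Ccl3* stayed at or under 142: 43.5 to 72 in LG/J with a median of 59.5, 44 to 142 in MRL/MpJ with a median of 67, 42.5 to 111 in C57BL6/J with a median of 76.5, and 39 to 128 in LGXSM-33 with a median of 65.25.

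Sorted over all 76 assay replicates, the *Ccl3* signals broke between 196 and 310, the widest relative step in the list. The 12 signals above this step belonged to 3 of the 4 recombinant lines, with 6 of 9 in LGXSM-35, 3 of 9 in LGXSM-5 and 3 of 12 in LGXSM-6, and 0 in LGXSM-33 or in any of the other strains. They came in runs of 3 neighbouring numbers. In LGXSM-35, Signals 1 to 3 were between 400.5 and 500 and Signals 4 to 6 between 617 and 699, whereas Signals 7 to 9 were between 68 and 115. In LGXSM-5, Signals 4 to 6 were between 310 and 465 and the other 6 between 51 and 92.5. In LGXSM-6, Signals 10 to 12 were between 323 and 498 and the other 9 between 59 and 187. SM/J had a smaller run of the same kind, with Signals 1 and 2 at 176 and 196 and the other 6 between 40 and 75. Runs of 3 have the length of the triplicates that the study describes, but the numbers are not tied to mice, lysates or plates. High *Ccl3* was thus not shared by all the signals of a strain, and the runs give no count of animals.

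**Figure D3:**
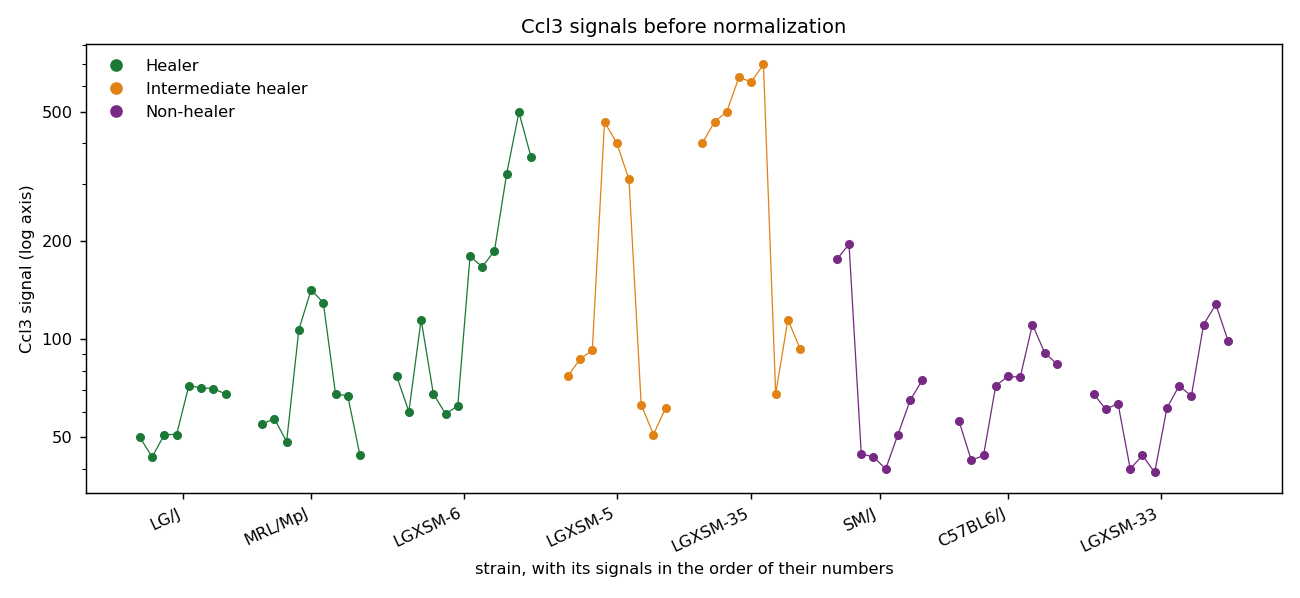
*Ccl3* signals before normalization (y axis, log scale) in the order of their numbers within each strain (x axis), coloured by healing class. The 12 signals of 310 to 699 form runs of 3 in LGXSM-6, LGXSM-5 and LGXSM-35, and every other signal is at or under 196.

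Normalized, the order for *Ccl3* was LGXSM-35, SM/J, LGXSM-5, C57BL6/J, LGXSM-6, LGXSM-33, LG/J and MRL/MpJ. LGXSM-35 had a mean of 0.330 ± 0.228 (SD, n = 9 assay replicates) and MRL/MpJ one of −0.170 ± 0.206 (SD, n = 9 assay replicates), a 3.17-fold difference (log10 difference 0.501 ± 0.106 SE, limma adjusted p = 0.000149). The lowest of the LGXSM-35 values, 0.0783, lay above the highest of MRL/MpJ, 0.0580. The 6 of 28 pairs that passed for *Ccl3* were those of LGXSM-35 with every strain but SM/J (adjusted p = 0.0529 for that pair), with folds from 2.00 over LGXSM-5 to 3.17 over MRL/MpJ. This share of pairs called was below the 29.7% over all mRNAs. The assay replicates were apart in 4 pairs, against 7.52% over all mRNAs, namely those of LGXSM-35 with MRL/MpJ, LGXSM-33 and LG/J, and C57BL6/J over LG/J (adjusted p = 0.383). No pair among the other 7 strains passed, and without LGXSM-35 the F test gave an adjusted p of 0.336. With Signals 1, 4, 7 and 10 alone 0 pairs passed, although LGXSM-35 still had the highest mean and MRL/MpJ the lowest.

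LG/J stood at the other end for evenness. Its 8 normalized *Ccl3* values lay between −0.151 and −0.0705, with an SD of 0.0305, whereas the SD was 0.354 in LGXSM-6, 0.315 in LGXSM-5 and 0.277 in SM/J. These spreads were not tested against each other.

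*Cxcl12*, the stromal chemokine, was the most even of the 4, with a within-strain SD of 0.0552 that ranked 56th of 67. Its raw signals were 2051 to 7043 in LGXSM-6 with a median of 3648, and 626 to 1871 in C57BL6/J with a median of 772.5. They were 1065 to 1641 in LG/J with a median of 1178, 1126 to 4162 in MRL/MpJ with a median of 2537, and 166 to 1054 in SM/J with a median of 573.5. In the other recombinant lines the medians were 1856 in LGXSM-5, 1037 in LGXSM-33 and 2465 in LGXSM-35. Because the reference genes differed as much, these raw levels say little about strains until they are normalized.

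The normalized *Cxcl12* means ran in the order LG/J, MRL/MpJ, LGXSM-6, LGXSM-33, SM/J, LGXSM-35, LGXSM-5 and C57BL6/J. LG/J had 0.0451 ± 0.0364 (SD, n = 8 assay replicates) and C57BL6/J −0.0733 ± 0.0704 (SD, n = 9 assay replicates), 1.31-fold apart (log10 difference 0.118 ± 0.0276 SE, limma adjusted p = 0.000509). C57BL6/J was lower than 5 of the other 7 strains, by 1.21-fold against SM/J to 1.31-fold against LG/J, and the 6th pair that passed was LG/J over LGXSM-5, at 1.19-fold (adjusted p = 0.0264). These 6 of 28 pairs are a smaller share than the 29.7% over all mRNAs. No neighbours in the order differed (adjusted p of 0.258 or more), and the assay replicates were apart in 1 of the 28 pairs, LG/J over LGXSM-35 (adjusted p = 0.0641), against 7.52% over all mRNAs. The low level of C57BL6/J came from Signals 1 to 6, which lay between −0.134 and −0.0856, whereas Signals 7 to 9 lay between 0.00885 and 0.0255 and overlapped most other strains. Without C57BL6/J the F test gave an adjusted p of 0.0713, and with Signals 1, 4, 7 and 10 alone 0 pairs passed, with LG/J over C57BL6/J by 0.138. As a ratio to the reference genes SM/J was the lowest strain for *Cxcl12*, at −0.253, below C57BL6/J at −0.191.

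*Bcl3*, the nuclear regulator of NF-κB, differed between strains more clearly than the secreted factors. Its raw signals were lowest in SM/J, at 13 to 85.5 with a median of 52.25, and in LG/J, at 49 to 118 with a median of 77.5. The inbred strains outside the LGXSM cross were higher, at 73.5 to 233.5 in C57BL6/J with a median of 132 and 140.5 to 545 in MRL/MpJ with a median of 201. The recombinant lines were higher than both of their parents in the median, at 324.5 in LGXSM-6, 183 in LGXSM-35, 180 in LGXSM-5 and 159 in LGXSM-33.

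In normalized values the order for *Bcl3* was LGXSM-33, LGXSM-5, MRL/MpJ, LGXSM-6, C57BL6/J, LGXSM-35, SM/J and LG/J. LG/J was the low strain, at −0.212 ± 0.0695 (SD, n = 8 assay replicates), and LGXSM-33 the high one, at 0.110 ± 0.0958 (SD, n = 12 assay replicates), 2.10-fold apart (log10 difference 0.321 ± 0.0450 SE, limma adjusted p = 2.99e-08). LG/J was lower than each of the other 7 strains, by 1.35-fold against SM/J to 2.10-fold against LGXSM-33, and its highest value of −0.145 was below the lowest value of LGXSM-33, LGXSM-5, LGXSM-6, C57BL6/J and LGXSM-35. Both parents of the recombinant lines were at the low end, since SM/J, at −0.0806 ± 0.0809 (SD, n = 8 assay replicates), was also lower than LGXSM-33, LGXSM-5, MRL/MpJ and LGXSM-6. Without the 3 SM/J wells of low reference signal, the SM/J mean was −0.126 and still above that of LG/J. In all, 14 of the 28 pairs passed, the largest number of the 4 mRNAs, against 29.7% of pairs over all mRNAs, and the assay replicates were apart in 5, against 7.52%. One neighbouring pair in the order differed, SM/J over LG/J (adjusted p = 0.0360). With Signals 1, 4, 7 and 10 alone 1 pair passed for *Bcl3*, LGXSM-33 over LG/J (adjusted p = 0.0443), against 2.67% of the pairs over all mRNAs. As a ratio to the reference genes LG/J was still the lowest strain for *Bcl3*, at −1.36, but the highest was C57BL6/J, at −1.03.

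*Bcl3* also fell into runs within a strain. Signals 1 to 9 of LGXSM-33 lay between 0.120 and 0.200 and Signals 10 to 12 between −0.0650 and −0.0277. In MRL/MpJ, Signals 7 to 9 lay between 0.220 and 0.245 and Signals 4 to 6 between −0.196 and −0.133. The values of MRL/MpJ thus ranged from −0.196 to 0.245, with an SD of 0.174, while its mean lay 0.262 above that of LG/J.

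The between-strain share of the variance of the normalized values, a ratio of the form that the study used for heritability but taken here over single signals and not over averages per mouse, was 48.6% for *Bcl3*, 26.5% for *Cxcl12*, 24.2% for *Ccl3* and 9.72% for *Il6*, with ranks of 14, 39, 42 and 57 among 67 mRNAs and a median of 29.6%. It is a value over assay replicates, without a test. Leaving out 1 strain at a time moved it between 26.9% (without LG/J) and 60.3% (without MRL/MpJ) for *Bcl3*, between 1.71% (without LGXSM-35) and 36.3% (without LGXSM-6) for *Ccl3*, between 12.4% (without C57BL6/J) and 37.9% (without SM/J) for *Cxcl12*, and between 5.23% (without SM/J) and 16.1% (without LGXSM-5) for *Il6*. For *Bcl3*, *Ccl3* and *Cxcl12* the share thus rested largely on the strain at one end of the order.

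**Figure D4:**
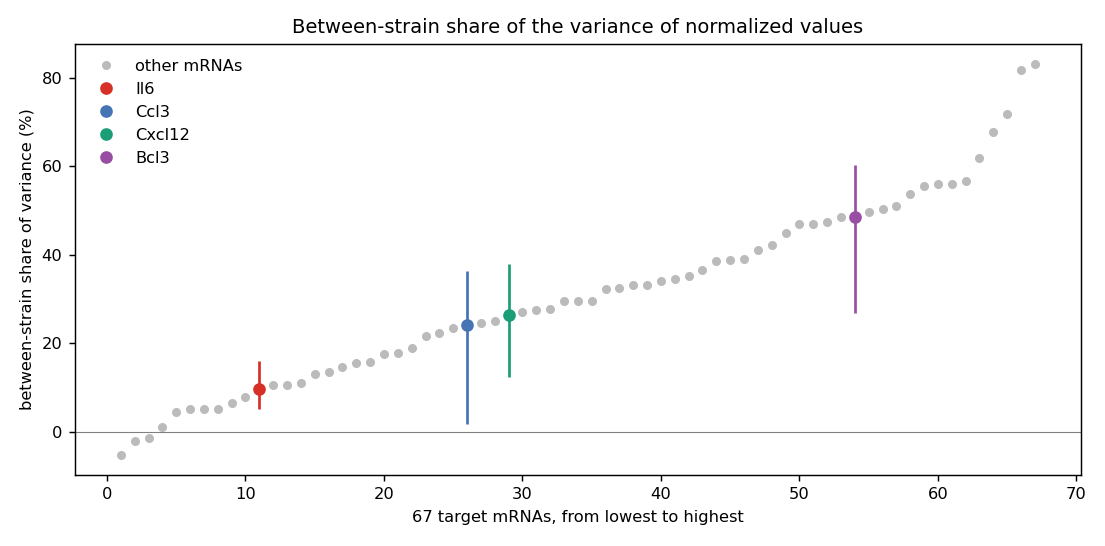
Between-strain share of the variance of normalized values (%, y axis) for the 67 target mRNAs, sorted from lowest to highest (x axis). Vertical lines give the range when each strain is left out in turn. *Bcl3* (48.6%) is above the median of 29.6%, *Cxcl12* (26.5%) and *Ccl3* (24.2%) lie just below it and *Il6* (9.72%) is near the low end.

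The healing classes were compared over strain means, with the strain as the independent unit. None of the 4 mRNAs passed between healers and non-healers, where limma called 0% of the 67 mRNAs after adjustment and 5.97% at an unadjusted p under 0.05. For *Il6*, every healer mean was above every non-healer mean. The healers were at 0.0538 in LG/J, 0.0421 in LGXSM-6 and 0.0235 in MRL/MpJ, and the non-healers at 0.00472 in LGXSM-33, −0.0504 in C57BL6/J and −0.0702 in SM/J. The difference was 0.0784 ± 0.0413 (SE, n = 3 strains each), 1.20-fold with a 95% interval from 0.965 to 1.49 (limma adjusted p = 0.630). As a ratio to the reference genes the difference turned to −0.118, where the median over all 67 mRNAs was −0.0792, so the direction for *Il6* rests on the form of the normalization.

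*Cxcl12* also had its 3 healer means above its 3 non-healer means. They were 0.0451 in LG/J, 0.0276 in MRL/MpJ and 0.0237 in LGXSM-6 against 0.0134 in LGXSM-33, 0.00956 in SM/J and −0.0733 in C57BL6/J, a difference of 0.0489 ± 0.0412 (SE, n = 3 strains each) or 1.12-fold with a 95% interval from 0.902 to 1.39 (limma adjusted p = 0.837). It was 0.0207 without C57BL6/J, 0.118 as a ratio to the reference genes (adjusted p = 0.157) and 0.437 without normalization (adjusted p = 0.0634), where the medians over all 67 mRNAs were −0.0792 and 0.203. The gap between LGXSM-6 and LGXSM-33 was small beside the spread of either, and with Signals 1, 4, 7 and 10 alone the classes overlapped, with MRL/MpJ at 0.0247 and LGXSM-33 at 0.0262, while the difference was 0.0524. Healer and non-healer means were apart for 13.4% of the 67 mRNAs. With 3 strains against 3, an exact two-sided permutation test cannot go below 0.1, which is the value that *Il6* and *Cxcl12* gave.

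*Ccl3* and *Bcl3* overlapped between these classes. *Ccl3* was at −0.170 in MRL/MpJ, −0.106 in LG/J and −0.0592 in LGXSM-6 against −0.0728 in LGXSM-33, 0.0266 in C57BL6/J and 0.0606 in SM/J, and the difference was −0.117 ± 0.0771 (SE, limma adjusted p = 0.651). It was −0.236 as a ratio to the reference genes (adjusted p = 0.230) and turned to 0.0836 without normalization. *Bcl3* was spread widely inside both classes, from −0.212 in LG/J to 0.0505 in MRL/MpJ among the healers and from −0.0806 in SM/J to 0.110 in LGXSM-33 among the non-healers, and its difference of −0.0625 ± 0.0817 (SE, limma adjusted p = 0.885) turned to 0.0218 without LG/J. The intervals were wide for both, from 0.511-fold to 1.14-fold for *Ccl3* and from 0.565-fold to 1.33-fold for *Bcl3*.

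The intermediate healers were not intermediate for *Ccl3*. LGXSM-35 at 0.330 and LGXSM-5 at 0.0297 gave a class mean of 0.180, above the healers by 0.292 ± 0.0862 (SE, n = 2 and 3 strains), or 1.96-fold with a 95% interval from 1.25 to 3.07. Both intermediate strains lay above all 3 healers. After adjustment the difference did not pass (limma p = 0.00832, adjusted p = 0.124, exact two-sided permutation p = 0.2, by doubling the smaller tail, the smallest that 2 strains against 3 then allow), in a contrast where 1.49% of the 67 mRNAs were called after adjustment and 23.9% at an unadjusted p under 0.05. The value rests on LGXSM-35, since the difference was 0.142 without it and 0.442 without LGXSM-5, which passed (limma adjusted p = 0.0292). In either case the intermediate class is then a single strain, assumed to vary like the strains of the other classes. Against the non-healers the intermediate healers were higher by 0.175 ± 0.0862 (SE, limma adjusted p = 0.421), a difference that was 0.0248 without LGXSM-35 and 0.326 without LGXSM-5, with 0% of the 67 mRNAs called after adjustment and 10.4% at an unadjusted p under 0.05. *Il6*, *Cxcl12* and *Bcl3* gave adjusted p of 0.501 or more in both contrasts with the intermediate healers. Strain means of intermediate healers and healers were also apart for *Il6* and *Cxcl12*, with both intermediate strains below all 3 healers. How many of the 67 mRNAs had these classes apart was not counted.

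**Figure D5:**
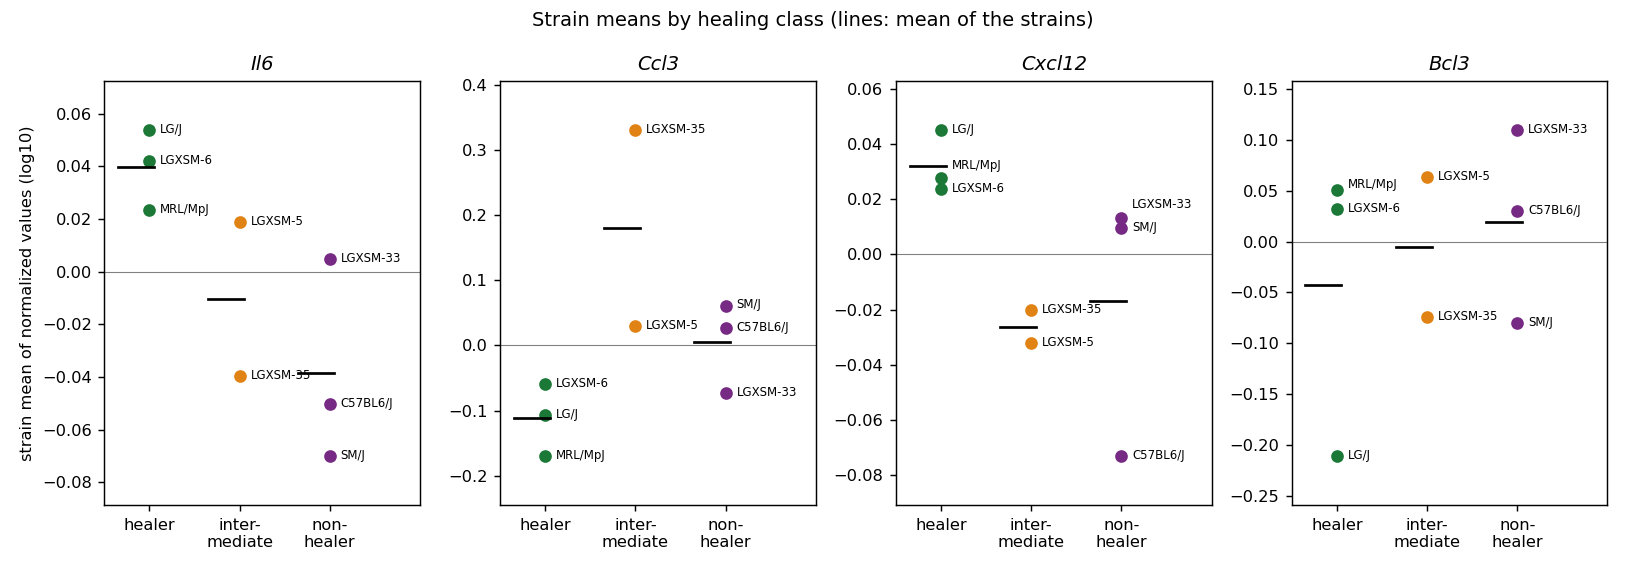
Mean normalized value (log10, y axis, a scale of its own for each mRNA) of the 8 strains by healing class (x axis), with the mean of the strains of a class as a line. Healers lie above non-healers for *Il6* and *Cxcl12* (as a ratio to the reference genes the *Il6* difference turns to −0.118). LGXSM-35 and LGXSM-5 lie above the 3 healers for *Ccl3* and below them for *Il6* and *Cxcl12*. The classes overlap for *Bcl3*.

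A healer was also set against a non-healer in 3 strain pairs, namely the parents LG/J and SM/J, the recombinant lines LGXSM-6 and LGXSM-33, and MRL/MpJ and C57BL6/J, which do not come from 1 cross. Whether the healer minus non-healer difference was alike in these pairs was tested with interaction terms over the assay replicates, where limma called 14.4% of the 201 tests. None of the tests on the 4 mRNAs passed. The smallest adjusted p was 0.0844, for *Cxcl12*, whose difference was smaller in the recombinant lines than between MRL/MpJ and C57BL6/J by 0.0905 ± 0.0354 (SE). For *Bcl3* the parents differed from MRL/MpJ and C57BL6/J by −0.152 ± 0.0677 (SE, adjusted p = 0.123). Each of these directions turned as a ratio to the reference genes. In that setting the *Ccl3* test of the parents against LGXSM-6 and LGXSM-33 passed.

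Of the 6 correlations between the 4 mRNAs over the 8 strain means, none passed after adjustment. *Il6* and *Ccl3* ran against each other, with r = −0.627 (exact permutation p = 0.0784, adjusted p = 0.352). Their rho was −0.690 (exact permutation p = 0.0694, adjusted p = 0.139). *Il6* with *Cxcl12* had r = 0.594 (exact permutation p = 0.117, adjusted p = 0.352), while rho was 0.738 (exact permutation p = 0.0458, adjusted p = 0.138). For *Ccl3* with *Cxcl12*, r was −0.504 (exact permutation p = 0.204, adjusted p = 0.408), while rho was −0.738 (exact permutation p = 0.0458, adjusted p = 0.138). Leaving out the 2 strains farthest from the median of the first-named mRNA gave r = −0.830, 0.683 and −0.672 for these 3 pairs (exact permutation p = 0.0681, 0.126 and 0.158, n = 6 strains). *Il6*, *Ccl3* and *Cxcl12* had r = −0.00472, −0.201 and −0.336 with *Bcl3* (exact permutation p = 0.990, 0.616 and 0.423, adjusted p = 0.990, 0.739 and 0.635), with rho of 0.0714, −0.238 and −0.167 (exact permutation p = 0.882, 0.582 and 0.703, adjusted p = 0.882, 0.844 and 0.844), and r = −0.188, 0.232 and −0.183 after leaving out, for each, the 2 strains most distant from its own median (exact permutation p = 0.697, 0.663 and 0.756). With ratios to the reference genes in place of residuals, r turned to 0.423 for *Il6* with *Ccl3* and to −0.628 for *Il6* with *Cxcl12*, and without normalization the latter was 0.963, which passed.

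Inside strains, the deviations of the 76 assay replicates from their strain means were correlated at 0.251 for *Il6* and *Ccl3*, 0.208 for *Il6* and *Bcl3*, 0.117 for *Il6* and *Cxcl12*, 0.206 for *Ccl3* and *Cxcl12*, 0.237 for *Cxcl12* and *Bcl3* and −0.296 for *Ccl3* and *Bcl3*. These are descriptions, since the values of a well share its reference signals. In LGXSM-5, Signals 4 to 6 were the top run for *Ccl3*, at 0.365 to 0.490, and the bottom run for *Bcl3*, at −0.0924 to −0.0520. The high *Ccl3* runs of the other lines were not set apart in this way, with *Bcl3* at 0.00277 to 0.0275 in Signals 10 to 12 of LGXSM-6 and at −0.117 to −0.00489 in Signals 1 to 6 of LGXSM-35, inside the range of the other signals of each line or overlapping it.

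The panels held 5 other mRNAs of inflammatory signalling, namely the cytokine *Il4* and the transcription factors *Stat3*, *Stat6*, *Nfkb1* and *Cebpb*. All 5 differed between strains over the assay replicates (limma adjusted p from 0.000191 for *Nfkb1* to 0.00738 for *Il4*), as 80.6% of all mRNAs did. With Signals 1, 4, 7 and 10 alone 0 of 5 differed, against 16.4% of all mRNAs, and 0 of 5 passed between healers and non-healers. Their strain means spanned 1.23-fold for *Stat3*, 1.27-fold for *Nfkb1*, 1.30-fold for *Stat6*, 1.50-fold for *Il4* and 1.99-fold for *Cebpb*, so that *Ccl3* and *Bcl3* spanned more than any of them. LG/J, the lowest strain for *Bcl3*, was also the lowest for *Stat3*, *Nfkb1* and *Cebpb*, and SM/J was the lowest for *Il4* and *Stat6*. Over the 8 strain means *Bcl3* had r = 0.794 with *Stat3*, 0.739 with *Il4*, 0.713 with *Nfkb1*, 0.595 with *Cebpb* and 0.275 with *Stat6*. *Cxcl12* ran against *Cebpb* (r = −0.873), as did *Il6* (r = −0.669). These values are descriptions over 8 strains whose values in a well share its reference signals.

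Among all other target mRNAs, those with the strain pattern most like *Bcl3* were *Retn*, which codes for the adipokine resistin (r = 0.884), and *Gdf5*, a growth factor of the joint (r = 0.806). *Retn* itself did not pass the F test over assay replicates (limma adjusted p = 0.0596). Its strain means spanned 1.20-fold, and its signals ran from 6.5 to 13. Nearest to *Il6* were the collagenase *Mmp13* (r = 0.762) and the stromelysin *Mmp3* (r = 0.756), both highest in LGXSM-6. Inside strains the deviations of *Il6* had r = −0.197 with *Mmp13*, of the opposite sign, and 0.457 with *Mmp3*. Nearest to *Cxcl12* were *Pcna*, the sliding clamp of DNA replication (r = 0.878), and *Xrcc2*, a DNA repair factor (r = 0.840), each lowest in C57BL6/J as *Cxcl12* was. *Ccl3* was nearest to the angiogenic factor *Vegfa* (r = 0.833) and to the autophagy factor *Becn1* (r = 0.549), and all of them were highest in LGXSM-35. Likeness here is Pearson's r over 8 strain means, given without a test.

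Tissue markers differed between the same strains. The mean normalized value of the 5 cartilage mRNAs was 0.128 in LG/J, 0.170 in LGXSM-6 and −0.0487 in MRL/MpJ among the healers, from −0.0666 to 0.0707 in the non-healers, and lowest in LGXSM-35 (−0.119) and LGXSM-5 (−0.174). *Mmp9*, of osteoclasts and myeloid cells, ran from −0.221 in LGXSM-5 and −0.199 in LGXSM-35 to 0.257 in C57BL6/J, with −0.0204 in LGXSM-6. The mean of the 3 bone mRNAs ran from −0.135 in LGXSM-35 to 0.105 in LGXSM-6. The mean of the 3 adipose mRNAs was lowest in LG/J (−0.123), where *Bcl3* was lowest, and highest in LGXSM-5 (0.0675). *Adipoq* (−0.259) and *Retn* (−0.0419) were lowest in LG/J, but *Lep* was lowest in LGXSM-35 (−0.0780). Of the marker mRNAs 5 of 5 of cartilage, 3 of 3 of bone, 1 of 3 of adipose tissue and 1 of 1 for *Mmp9* differed between strains over assay replicates, against 80.6% of all mRNAs, and 0 passed between healers and non-healers. With Signals 1, 4, 7 and 10 alone *Mia1* of cartilage, *Bglap1* and *Mmp9* still differed, against 16.4% of all mRNAs. The part of tissue make-up in the strain differences was not tested.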

How the data were processed

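The authors subtracted a background from the assay signals, per their methods. The deposited files hold, per the file headers, log10 signals of each assay replicate and normalized log10 values, the residuals left by a multiple regression on *Gapdh*, *Hprt1* and, in the first panel, *Actb*. This regression, recomputed here, gave the deposited values of the first panel, beside Signal 9 of LGXSM-35, to within 1e-04, and those of the second panel to within 0.0344, so that the fit behind the second panel is not known exactly. Whether the deposited signals precede the background step is not stated. The authors' strain averages and their ratios to C57BL6/J were not used. In Signal 9 of LGXSM-35 in the first panel, 31 rows of the deposited normalized values held the residual of an mRNA 2 rows away, to within 1e-04. For 29 mRNAs the value was moved back to its own row, and for 2 it was recomputed here. As filed, this value was −0.141 for *Il6* (0.0417 after the move), −0.0148 for *Ccl3* (0.128) and −0.335 for *Cxcl12* (0.00918).

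Class contrasts were fitted on strain means, and strain, pair and interaction contrasts on assay replicates, in each panel with limma 3.58.1 (R 4.3.3), Benjamini-Hochberg adjustment over all 67 mRNAs and tests of a kind, and a threshold of 0.05. A fold is 10 raised to the log10 difference. Correlations used exact two-sided permutation over 40320 orders (Python 3.11.15). The fits were tested on simulated data. The 4 mRNAs and the lists of other mRNAs were chosen with earlier results of these data known. Named mRNAs are the 4, the listed inflammatory and marker mRNAs, the reference genes and, for each of the 4, the 2 mRNAs with the highest r over strain means. All 4 symbols matched the RefSeq annotation of GRCm38.p6, used for names alone. Alternatives were other normalizations, the median over assay replicates, a median signal of at least 10 (59 mRNAs), strain as a random block, Tukey's test, other adjustments and leaving out each strain. Added after the data were seen were the values as filed, Signals 1, 4, 7 and 10 alone, and leaving out Signal 9 of LGXSM-35 or the 3 SM/J signals with the lowest reference genes.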

Additional observations from a re-analysis of the deposited data

Results flagged for a closer look

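Within the strains, 2 of 24 groups of up to 10 assay replicates held a value far from the rest by Dixon's 95% criterion, and chance alone gives about 1 in 20. For *Il6*, Signal 5 of C57BL6/J was at −0.218, where the nearest of the other values of this strain was −0.0678. For *Ccl3*, Signal 1 of C57BL6/J was at 0.166, where the nearest was 0.0502.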

How the results depend on the processing

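Neither labels nor files tie a signal to a mouse or plate, so the strain tests cover the spread between assay replicates and not between mice, and 3 strains against 3 leave wide intervals between classes. *Il6* signals of 5 to 24 were read in coarse steps. No paired analysis was possible because the labels carry no replicate numbers that would pair assay replicates across strains. The cause of the changes below was not tested.

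As a ratio to the reference genes, healer minus non-healer turned to −0.118 for *Il6*. Intermediate minus healer turned to 0.00593 for *Il6* and −0.00154 for *Bcl3* with 0 of 67 mRNAs called, and intermediate minus non-healer to −0.112 for *Il6* and 0.0413 for *Cxcl12*, where the median over all 67 mRNAs was −0.112, as for *Il6*. The correlations turned to 0.423 for *Il6* with *Ccl3*, −0.628 for *Il6* with *Cxcl12* and 0.118 for *Cxcl12* with *Bcl3*. Of the interactions, parents against LGXSM-6 and LGXSM-33 became −0.448 for *Ccl3*, which passed, −0.0573 for *Cxcl12* and −0.0542 for *Il6*. Parents against MRL/MpJ and C57BL6/J became 0.00564 for *Bcl3*, −0.160 for *Ccl3*, 0.0462 for *Cxcl12* and −0.0345 for *Il6*, and LGXSM-6 and LGXSM-33 against that pair 0.0849 for *Bcl3*, 0.103 for *Cxcl12* and 0.0197 for *Il6*. The limma F test passed for *Il6* (adjusted p = 0.00651), with 5 strain pairs called for *Il6* and 13 for *Ccl3*.

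Without normalization, healer minus non-healer was 0.279 for *Bcl3* and 0.0836 for *Ccl3*, with 3 mRNAs called. Intermediate minus healer was −0.0369 for *Bcl3* with 0 called, and intermediate minus non-healer 0.242 for *Bcl3* and 0.326 for *Cxcl12*. The correlations were 0.388 for *Ccl3* with *Bcl3*, 0.478 for *Ccl3* with *Cxcl12*, 0.907 for *Cxcl12* with *Bcl3*, 0.829 for *Il6* with *Bcl3*, 0.487 for *Il6* with *Ccl3* and 0.963 for *Il6* with *Cxcl12*, the last of which passed. Parents against LGXSM-6 and LGXSM-33 gave −0.00811 for *Cxcl12* and −0.00499 for *Il6*. Parents against MRL/MpJ and C57BL6/J gave 0.0578 for *Bcl3*, −0.107 for *Ccl3* and 0.0984 for *Cxcl12*, and LGXSM-6 and LGXSM-33 against that pair 0.0879 for *Bcl3*, 0.106 for *Cxcl12* and 0.0227 for *Il6*, with 11 interactions called against 29. The between-strain share was 56.4% for *Cxcl12* and 48.8% for *Il6*, the F test for *Il6* gave an adjusted p of 1.02e-07, and 862 strain pairs were called against 557, of which 14 were for *Ccl3*, 16 for *Cxcl12* and 13 for *Il6*. Healer minus non-healer over all 67 mRNAs had a median of 0.03 on the log2 scale, −0.26 as a ratio and 0.68 without normalization.

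With Signals 1, 4, 7 and 10 alone, the F test called 11 mRNAs against 54, with adjusted p of 0.0896 for *Bcl3*, 0.484 for *Ccl3* and 0.479 for *Cxcl12*. Strain pairs fell to 50 over all mRNAs, 1 for *Bcl3* and 0 for *Ccl3*, *Cxcl12* and *Il6*, and interactions to 2. The share for *Il6* was −25.4%, intermediate minus healer for *Bcl3* −0.00281, the correlation of *Il6* with *Bcl3* 0.0978, and the interaction of LGXSM-6 and LGXSM-33 against MRL/MpJ and C57BL6/J 0.0121 for *Il6*.

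Without the 3 SM/J signals of low reference genes, parents against MRL/MpJ and C57BL6/J gave −0.0549 for *Ccl3* and 0.0109 for *Cxcl12*, intermediate minus non-healer 0.00782 for *Cxcl12*, *Il6* with *Bcl3* 0.177, the F test for *Il6* an adjusted p of 0.0368, and intermediate against healer 2 calls. With the values as filed *Il6* passed the F test (adjusted p = 0.0431) and its correlation with *Bcl3* was 0.0324. Without Signal 9 of LGXSM-35 that correlation was 0.0128 and intermediate against healer had 0 calls. With strain medians intermediate minus healer was −0.00452 for *Bcl3*, with 2 calls. With strain as a random block over assay replicates, the class contrasts called 1, 10 and 5 mRNAs in place of 0, 1 and 0. Tukey's test called 7 pairs for *Bcl3* and 0 for *Il6*. Interactions at an unadjusted p under 0.05 numbered 54.

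Leaving out each strain in turn, the correlation with *Bcl3* ranged from −0.715 to 0.0270 for *Ccl3*, from −0.461 to 0.0696 for *Cxcl12* and from −0.220 to 0.698 for *Il6*. Healer minus non-healer ranged from −0.113 to 0.0218 for *Bcl3*, where it was positive without LG/J. Intermediate minus healer ranged from −0.0467 to 0.107 for *Bcl3* and from 0.142 to 0.442 for *Ccl3*, with 0 to 6 mRNAs called. Intermediate minus non-healer ranged from −0.0940 to 0.0443 for *Bcl3*, from −0.0376 to 0.00570 for *Cxcl12* and from −0.00114 to 0.0574 for *Il6*. The adjusted p of the limma F test ranged from 7.96e-05 to 0.336 for *Ccl3*, highest without LGXSM-35, from 6.56e-05 to 0.0713 for *Cxcl12*, highest without C57BL6/J, and from 0.0232 to 0.189 for *Il6*. Of all values recomputed, 563 kept their direction and side of the threshold or moved by less than their error, 57 reversed, 36 moved further, 9 gained a call and 5 lost it.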
